A study of Mus musculus with 16 samples.

Results

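Surfactant, the film of lipid and protein that keeps the air spaces of the lung open, is made by alveolar type 2 (AT2) cells. The 7 genes described here encode 4 surfactant proteins (Sftpa1, Sftpb, Sftpc and Sftpd), the small secreted surfactant-associated protein 2 (Sfta2), and 2 proteases that act on surfactant protein precursors (Napsa and Ctsh). They were taken by gene symbol from the 27179 gene identifiers of the count table, and all 7 had a row. Earlier results of these data were known when the 7 genes were chosen.

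RNA was sequenced from AT2 cells of 8 mice, 4 with the column prefix OG and 4 with the prefix R26. Each mouse gave a CD44+ and a CD44- library, so there were 16 libraries in 4 groups of 4: OG CD44+, OG CD44-, R26 CD44+ and R26 CD44-. CD44 is a cell surface receptor for hyaluronan, and the study asked how CD44+ and CD44- AT2 cells differ in their transcripts in fibrotic lungs with an Sftpc mutation and in control lungs. The sort took live Epcam+ CD200-high cells that were negative for CD45, CD31 and CD104. The labels list the genotypes SP-C WT and SP-C Mutant, tie neither to the prefixes OG and R26, and give every sample the treatment text OG TMX. Reading R26 as the control and OG as the mutant is therefore an inference. If it is wrong, the OG against R26 differences belong to the opposite genotypes, while the CD44 differences within a prefix stand. The mutation, its promoter or driver, and the age of the mice are not given in the sources used here, and the Sftpc level checks no genotype.

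As background, surfactant proteins B and C are small hydrophobic proteins that help surfactant lipids spread at the air surface. Both are made as larger precursors that are cut on their way to the lamellar bodies, the lysosome-related organelles that store surfactant. Napsin A (Napsa, an aspartic protease) and cathepsin H (Ctsh, a cysteine protease) are known to take part in that cutting. Surfactant proteins A and D are collectins, soluble lectins that bind microbes and surfactant lipids.

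In mm10, Sftpa1 (gene 20387, plus strand) lies at chr14:41131788-41136373 and Sftpd (gene 20390, minus strand) at chr14:41172212-41185198, so these collectin genes lie close together on chromosome 14. Sftpc (gene 20389, minus strand) lies at chr14:70520941-70524081, Sftpb (gene 20388, plus strand) at chr6:72304610-72314373 and Sfta2 (gene 433102, plus strand) at chr17:35649708-35650569. Napsa (gene 16541, plus strand) lies at chr7:44572445-44586846 and Ctsh (gene 13036, plus strand) at chr9:90054267-90076095. Exons of Napsa overlap an antisense gene, Gm15396, over 502 bases. The strand setting of the counting is not given in the sources used here, so reads of that stretch cannot be assigned to either gene.

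RefSeq promoters (GRCm38.p6, from 250 bases before to 50 bases after the gene start) were at hand for 3 of the 7 genes, Sftpa1, Sftpb and Sfta2. They are shown because no others of the 7 were at hand. These genes were lower in all 6 pairs of groups compared below, as were Sftpc and Sftpd, whose promoters are not shown. NKX2-1 is the lung transcription factor known to bind the promoters of surfactant genes, and the capitals mark CTCAAG, the core letters of its motif.
Sftpa1: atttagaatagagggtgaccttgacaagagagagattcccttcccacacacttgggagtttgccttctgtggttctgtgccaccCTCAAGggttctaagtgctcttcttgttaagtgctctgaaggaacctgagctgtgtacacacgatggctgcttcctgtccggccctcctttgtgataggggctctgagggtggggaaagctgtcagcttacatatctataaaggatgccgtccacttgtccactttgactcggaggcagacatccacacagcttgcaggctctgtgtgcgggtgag
Sftpb: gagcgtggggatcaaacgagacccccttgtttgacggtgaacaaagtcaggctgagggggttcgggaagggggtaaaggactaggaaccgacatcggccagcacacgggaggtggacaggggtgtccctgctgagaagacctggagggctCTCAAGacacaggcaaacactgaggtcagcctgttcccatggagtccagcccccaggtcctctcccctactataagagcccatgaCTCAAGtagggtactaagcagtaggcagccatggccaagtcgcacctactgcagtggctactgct
Sfta2: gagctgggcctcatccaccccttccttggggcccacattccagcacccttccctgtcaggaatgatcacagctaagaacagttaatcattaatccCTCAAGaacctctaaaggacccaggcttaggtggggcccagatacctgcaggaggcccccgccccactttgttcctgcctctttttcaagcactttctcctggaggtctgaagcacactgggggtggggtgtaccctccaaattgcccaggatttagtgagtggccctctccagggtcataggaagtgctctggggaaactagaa
These windows are chr14:41131538-41131837, chr6:72304360-72304659 and chr17:35649458-35649757, all on the plus strand. CTCAAG begins 166 bases before the start of Sftpa1, 100 and 15 bases before that of Sftpb, and 155 bases before that of Sfta2. On either strand, it is held by 15.9% of the 32851 promoters in the table. The FOXA letters TGTTTNC are in the Sftpb window, on the minus strand 88 bases before the start and clear of CTCAAG, and in 20.5% of all promoters. The C/EBP letters TTGCNNAA (10.8% of all promoters), the GATA letters AGATAA (11.2%) and the ETS letters CCGGAA (14.9%) are in none of the 3 windows on either strand.

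Library totals were 9022471 to 21363816 counts, and all 7 genes passed the filter on low counts, with 15516 genes tested. Levels are given in counts per 1000000 (CPM) after TMM scaling, a correction for differences in RNA composition. The AT2 label was checked on 6 markers (Sftpc, Abca3, Lamp3, Slc34a2, Etv5 and Lyz2): none was at 0 in any library. Their summed levels were 12670 to 14917 CPM in OG CD44+, 28924 to 30575 CPM in OG CD44-, 83372 to 121284 CPM in R26 CD44+ and 122921 to 146624 CPM in R26 CD44-. The R26 CD44+ library of animal 2 held the value of 121284 CPM, while the other R26 CD44+ libraries lay between 83372 and 85595 CPM. Sftpc is one of the 7 genes, so the label was also read on the other 5 markers. These summed to 6982 to 7854 CPM in OG CD44+, 17821 to 18754 CPM in OG CD44-, 34797 to 48568 CPM in R26 CD44+ (48568 CPM in animal 2) and 51820 to 60317 CPM in R26 CD44- libraries. The R26 CD44+ library of animal 2 was the highest of its group for 6 of the 7 genes, and the OG CD44+ library of animal 3 was the lowest of its group for all 7, as was the OG CD44- library of that animal. Values without the R26 CD44+ library of animal 2 and the OG CD44+ library of animal 3 are given below.

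Transcripts that mark other cells of the lung differed between the groups as well. Fibroblast markers (all 6 higher in OG CD44+ than in OG CD44-, all 6 in R26 CD44+ than in R26 CD44-, and all 6 in OG CD44- than in R26 CD44-) summed to 1570 to 2803 CPM in OG CD44+, 707 to 767 CPM in OG CD44-, 677 to 1458 CPM in R26 CD44+ and 96.5 to 126.6 CPM in R26 CD44-. Lymphocyte and plasma cell markers (4 of 6 tested, all 4 higher in CD44+ cells of both prefixes, Igkc, Jchain and Igha among them) summed to 1397 to 3965 CPM in OG CD44+, 72.4 to 141.3 CPM in OG CD44-, 1567 to 3797 CPM in R26 CD44+ and 8.91 to 25.7 CPM in R26 CD44-. Club cell markers (6 higher in CD44+ cells with the OG prefix and 5 of 6 with R26) ran to 1845 to 2546 CPM in OG CD44+, 638 to 761 CPM in OG CD44-, 1800 to 3288 CPM in R26 CD44+ and 557 to 1184 CPM in R26 CD44-. AT1 cell markers, of which all 6 were higher in OG CD44- than in R26 CD44- cells, summed to 2977 to 3326 CPM in OG CD44+, 2900 to 3262 CPM in OG CD44-, 1674 to 1976 CPM in R26 CD44+ and 1092 to 1244 CPM in R26 CD44-. Ciliated markers (6 of 6 higher in OG CD44+ than in OG CD44-, 4 of 6 in R26 CD44+ than in R26 CD44-, and 4 of 6 in OG CD44- than in R26 CD44-) summed to 286 to 365 CPM in OG CD44+, 166 to 169 CPM in OG CD44-, 151 to 262 CPM in R26 CD44+ and 111 to 124 CPM in R26 CD44-. Endothelial markers (4 of 6 lower in OG CD44+ than in OG CD44-, 5 of 6 higher in R26 CD44+ than in R26 CD44-, and 5 of 6 lower in OG CD44+ than in R26 CD44+) summed to 99.6 to 105 CPM in OG CD44+, 168 to 177 CPM in OG CD44-, 165 to 181 CPM in R26 CD44+ and 124 to 141 CPM in R26 CD44-. Esam, with means of 90.7, 151, 92.2 and 117 CPM in that order, made up most of these sums. Of the 6 markers, 5 were lower and 1 higher in OG CD44- than in R26 CD44+. Macrophage markers (5 tested, all 5 higher in OG CD44- than in R26 CD44-, and 4 higher in OG CD44+ than in R26 CD44+) summed to 25.4 to 34.6 CPM in OG CD44+, 49.5 to 55.4 CPM in OG CD44-, 13.4 to 16.7 CPM in R26 CD44+ and 12.6 to 17.6 CPM in R26 CD44-. Of the basal markers only 1 could be tested, and it was higher in OG than in R26 cells of both sorts. Basal sums were 7.81 to 10.97 CPM in OG CD44+, 5.93 to 7.02 CPM in OG CD44-, 0.238 to 46.6 CPM in R26 CD44+ and 0.167 to 1.21 CPM in R26 CD44-. In the OG CD44+ library of animal 3 the fibroblast markers summed to 2803 CPM and the lymphocyte and plasma cell markers to 3965 CPM, the highest of its group. Marco, a macrophage receptor, was at 0 in all R26 libraries, and up to 4 of the 6 macrophage and 5 of the 6 basal markers were at 0 in single libraries. The part of these cell types in the results below was not tested. RNA of the sorting antigens is given as means in OG CD44+, OG CD44-, R26 CD44+ and R26 CD44- cells. Cd44 had 914, 562, 469 and 329 CPM, and Cd200 had 78.2, 123, 134 and 178 CPM. Itgb4, which encodes CD104, had 94.7, 24.9, 13.8 and 6.78 CPM. Ptprc, which encodes CD45, had 5.14, 1.21, 7.94 and 0.164 CPM.

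The surfactant protein genes and Napsa were lower in OG than in R26 cells in both sorts, and lower in CD44+ than in CD44- cells of both prefixes, whereas Ctsh was higher in OG cells and differed by prefix in its CD44 direction. Of the 7 genes, 1 was higher and 6 were lower in OG CD44- against R26 CD44- cells (edgeR's quasi-likelihood test, adjusted p by Benjamini-Hochberg). In that comparison 69% of all genes passed the test, 39.4% higher and 29.6% lower. In OG CD44+ against R26 CD44+ cells, 1 was higher and 6 were lower, where 69.1% of all genes passed, 34.5% higher and 34.6% lower. In OG CD44+ against OG CD44- cells, 1 was higher and 6 were lower, where 50.4% of all genes passed, 22.3% higher and 28% lower. In R26 CD44+ against R26 CD44- cells, all 7 were lower, where 37.1% of all genes passed, 21.6% higher and 15.4% lower. Since between 37.1% and 69.1% of all genes passed, a pass by itself says little about these genes. The median log2 fold change of the 7 genes, beside that of all genes tested, was -1.03 beside 0.12 in OG CD44- against R26 CD44-, -1.06 beside -0.01 in OG CD44+ against R26 CD44+, -0.80 beside -0.06 in OG CD44+ against OG CD44-, and -0.55 beside -0.02 in R26 CD44+ against R26 CD44-. In bulk RNA, fewer cells of a type and less RNA per cell cannot be told apart. With a 1.5-fold minimum in the test, 6 of the 7 genes passed in each OG against R26 comparison (all but Napsa). In OG CD44+ against OG CD44- 3 passed, all lower (Sftpa1, Sfta2 and Sftpd), and in R26 CD44+ against R26 CD44- 0 passed. Over all genes, 2551 passed higher and 2095 lower in OG CD44- against R26 CD44-, and 2154 and 2625 in OG CD44+ against R26 CD44+. In OG CD44+ against OG CD44-, 1483 were higher and 362 lower. In R26 CD44+ against R26 CD44-, 2026 were higher and only 9 lower, so the 0 there says little about the 7 genes. At that minimum 1 of the 7 genes had an unadjusted p under 0.05 in the R26 comparison, where DESeq2 and limma voom with no minimum called all 7.

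**Figure D1:**
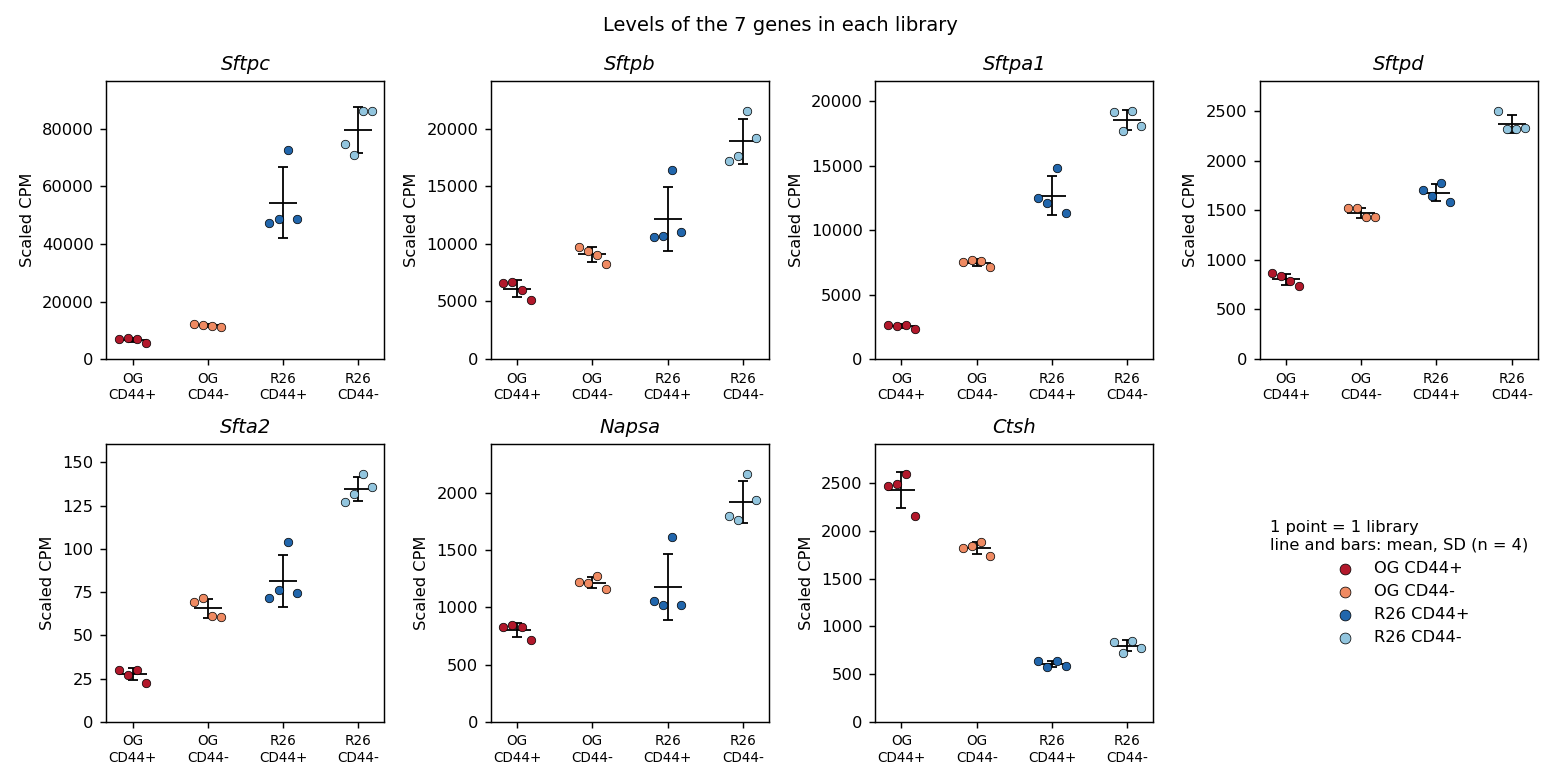
Level of each of the 7 genes in every library (vertical axes, scaled CPM, starting at 0), in the order OG CD44+, OG CD44-, R26 CD44+ and R26 CD44-. Each point is 1 library and the line and bars are the mean and SD (n = 4). Sftpc lies at 5688 to 12022 CPM in OG libraries and at 47309 to 86308 CPM in R26 libraries, while Ctsh runs the other way between the prefixes.

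**Figure D2:**
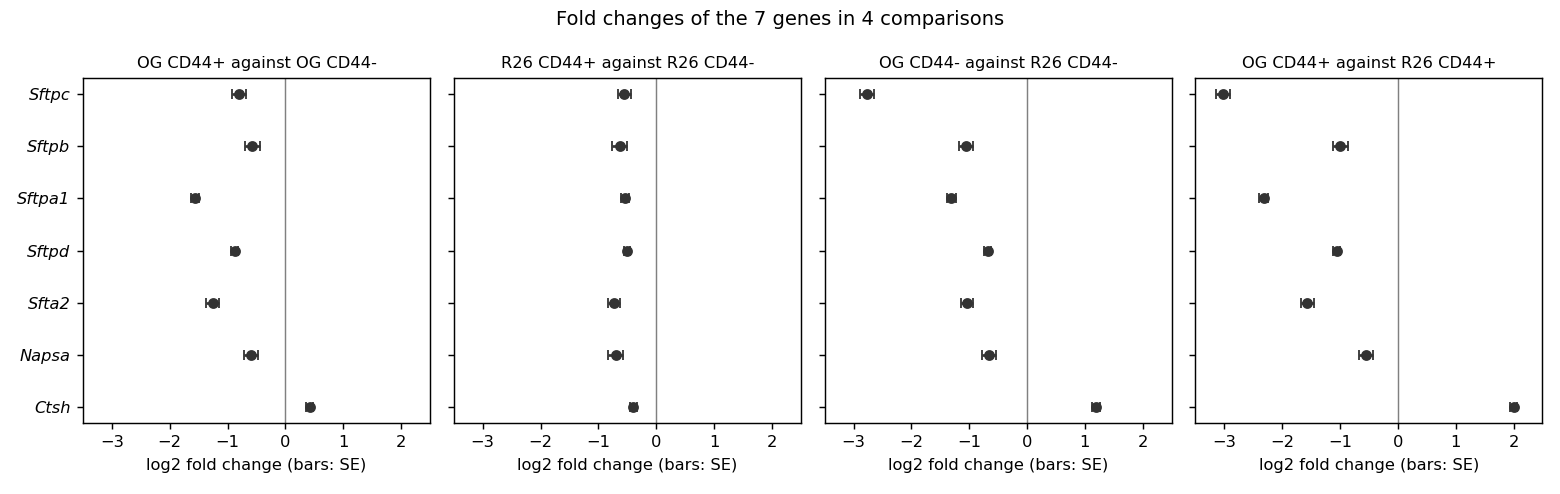
Log2 fold change of each gene in the 4 comparisons, with bars for the SE. Points left of 0 are lower in the group named first. Sftpc has the lowest point in both OG against R26 panels (-2.77 and -3.02), and Ctsh is the 1 point right of 0 in every panel but that of R26 CD44+ against R26 CD44-.

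Sftpc, which encodes surfactant protein C, the gene named in the genotype labels, showed the largest prefix difference of the 7. Its levels were 5688, 6869.8, 7055 and 7173 CPM in OG CD44+ libraries and 11102, 11611, 12002 and 12022 CPM in OG CD44- libraries. They were 47309, 48594, 48837 and 72715 CPM in R26 CD44+ libraries and 71101, 74685, 86273 and 86308 CPM in R26 CD44- libraries. All OG libraries lay below all R26 libraries. The OG CD44+ and OG CD44- groups did not overlap, while the R26 CD44+ library of animal 2 lay above the lowest R26 CD44- library. Sftpc was 6.81-fold lower in OG CD44- than in R26 CD44- cells (log2 fold change -2.77 ± 0.12, adjusted p = 1.77e-14). It was 8.12-fold lower in OG CD44+ than in R26 CD44+ cells (-3.02 ± 0.12, adjusted p = 4.85e-15). It was also lower in OG CD44+ than in OG CD44- cells (-0.80 ± 0.11, adjusted p = 7.10e-06) and in R26 CD44+ than in R26 CD44- cells (-0.55 ± 0.11, adjusted p = 6.44e-04). By counts its rank among all genes was 8 in OG CD44+ and 4 in OG CD44- cells, against 2 in R26 CD44+ and 1 in R26 CD44- cells.

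Sftpb, which encodes surfactant protein B, had 5164, 5962, 6645 and 6698 CPM in OG CD44+ and 8265, 8998, 9364 and 9751 CPM in OG CD44- libraries. It had 10636, 10697, 10999 and 16375 CPM in R26 CD44+ and 17202, 17652, 19216 and 21557 CPM in R26 CD44- libraries. The 4 groups did not overlap and stood in that order from low to high, with the R26 CD44+ library of animal 2 well above the other 3 of its group. Sftpb was 2.08-fold lower in OG CD44- than in R26 CD44- cells (-1.06 ± 0.13, adjusted p = 1.15e-06) and 1.99-fold lower in OG CD44+ than in R26 CD44+ cells (-0.99 ± 0.13, adjusted p = 2.40e-06), a smaller prefix difference than that of Sftpc. The CD44 difference was -0.57 ± 0.13, adjusted p = 0.00123 in OG and -0.63 ± 0.13, adjusted p = 7.46e-04 in R26 cells.

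Sftpa1, which encodes the collectin surfactant protein A, had the largest CD44 difference of the 7 genes in OG cells. Its levels were 2327, 2570.4, 2629.6 and 2635 CPM in OG CD44+ libraries, against 7114, 7549, 7619.6 and 7681 CPM in OG CD44- libraries. They were 11359, 12083, 12514 and 14814 CPM in R26 CD44+ libraries, against 17664, 18068, 19161 and 19266 CPM in R26 CD44- libraries. No groups overlapped, and the OG CD44+ libraries lay far below all others. Sftpa1 was 2.95-fold lower in OG CD44+ than in OG CD44- cells (-1.56 ± 0.07, adjusted p = 8.01e-14) and 1.46-fold lower in R26 CD44+ than in R26 CD44- cells (-0.55 ± 0.07, adjusted p = 1.40e-06). Between prefixes it was lower in OG CD44- than in R26 CD44- cells (-1.31 ± 0.07, adjusted p = 5.96e-14) and in OG CD44+ than in R26 CD44+ cells (-2.32 ± 0.07, adjusted p = 2.16e-18).

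Sftpd, which encodes the other collectin, surfactant protein D, had 735, 783, 838 and 864 CPM in OG CD44+ and 1434, 1436, 1521 and 1523 CPM in OG CD44- libraries. It had 1581, 1644, 1702 and 1779.9 CPM in R26 CD44+ and 2319, 2324, 2337 and 2505 CPM in R26 CD44- libraries. The 4 groups did not overlap, but OG CD44- and R26 CD44+ lay close together. Sftpd was lower in OG CD44+ than in OG CD44- cells (-0.88 ± 0.06, adjusted p = 1.12e-11) and in R26 CD44+ than in R26 CD44- cells (-0.50 ± 0.05, adjusted p = 1.19e-07). It was 1.60-fold lower in OG CD44- than in R26 CD44- cells (-0.68 ± 0.05, adjusted p = 7.99e-11) and 2.08-fold lower in OG CD44+ than in R26 CD44+ cells (-1.06 ± 0.06, adjusted p = 2.36e-14).

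Sfta2, the least abundant of the 7, had 22.6, 27.1, 29.7 and 30.2 CPM in OG CD44+ and 60.3, 61.3, 69.0 and 71.3 CPM in OG CD44- libraries. It had 71.7, 74.6, 75.9 and 104 CPM in R26 CD44+ and 127, 132, 136 and 144 CPM in R26 CD44- libraries. The groups did not overlap, although the highest OG CD44- and the lowest R26 CD44+ libraries were nearly level. The CD44 difference was -1.26 ± 0.11, adjusted p = 7.80e-08 in OG and -0.73 ± 0.10, adjusted p = 2.23e-05 in R26 cells, and the prefix difference was -1.03 ± 0.10, adjusted p = 6.67e-08 in CD44- and -1.56 ± 0.11, adjusted p = 1.03e-09 in CD44+ cells.

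The 2 proteases differed from each other. Napsa had 712, 825, 831 and 848 CPM in OG CD44+ and 1158, 1213, 1219 and 1269.5 CPM in OG CD44- libraries, against 1019, 1023, 1059 and 1613 CPM in R26 CD44+ and 1761, 1801, 1942 and 2169 CPM in R26 CD44- libraries. OG CD44+ libraries were lowest and R26 CD44- libraries highest, with OG CD44- and R26 CD44+ libraries overlapping between them. Napsa was lower in OG CD44- than in R26 CD44- cells (-0.66 ± 0.13, adjusted p = 3.31e-04), in OG CD44+ than in R26 CD44+ cells (-0.55 ± 0.13, adjusted p = 0.00145), in OG CD44+ than in OG CD44- cells (-0.60 ± 0.13, adjusted p = 0.00134) and in R26 CD44+ than in R26 CD44- cells (-0.70 ± 0.13, adjusted p = 5.19e-04).

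Ctsh had 2159, 2473, 2489.9 and 2601 CPM in OG CD44+ and 1739, 1819, 1836 and 1884 CPM in OG CD44- libraries. It had 572, 581, 635 and 638 CPM in R26 CD44+ and 724, 776, 836 and 850.1 CPM in R26 CD44- libraries. No groups overlapped: the order was OG CD44+, OG CD44-, R26 CD44- and R26 CD44+ from high to low. Ctsh was 2.28-fold higher in OG CD44- than in R26 CD44- cells (1.19 ± 0.06, adjusted p = 2.03e-14) and 4.01-fold higher in OG CD44+ than in R26 CD44+ cells (2.00 ± 0.06, adjusted p = 1.86e-18). It was higher in OG CD44+ than in OG CD44- cells (0.42 ± 0.06, adjusted p = 4.98e-06) but lower in R26 CD44+ than in R26 CD44- cells (-0.39 ± 0.06, adjusted p = 1.76e-05). By counts, the rank of Ctsh among all genes was 15 in OG CD44+ and 27 in OG CD44- cells, against 131 in R26 CD44+ and 96 in R26 CD44- cells.

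Without the R26 CD44+ library of animal 2, the CD44 differences in R26 cells were larger for all 7 genes and kept their direction. They were -0.80 for Sftpc, -0.89 for Sftpb, -0.70 for Sftpa1, -0.61 for Sftpd, -0.93 for Sfta2, -0.97 for Napsa and -0.49 for Ctsh on the log2 scale. This refit also scaled the other libraries anew, so these values hold both changes, and their parts were not told apart. In OG CD44+ against OG CD44-, which holds no R26 library, Sftpa1 moved from -1.56 to -1.51 in the same refit. Ctsh moved there from 0.42 to 0.47. Within animal 2 itself the Ctsh difference was -0.42, the largest fall of the R26 animals. In OG CD44+ against R26 CD44+ cells the change of Napsa was -0.35 without it, and that of Sftpc was -2.83. Without the OG CD44+ library of animal 3, every gene kept its direction and call in OG CD44+ against OG CD44- cells. The changes there were -0.73 for Sftpc, -0.50 for Sftpb, -1.52 for Sftpa1, -0.84 for Sftpd, -1.18 for Sfta2, -0.54 for Napsa and 0.47 for Ctsh on the log2 scale.

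The pairs of groups that differ in both prefix and sort place the levels in order. In OG CD44- against R26 CD44+ cells, 1 gene (Ctsh) was higher and 5 were lower, where 71.8% of all genes passed, 35.2% higher and 36.6% lower. Sftpc was still lower in OG CD44- cells there (-2.22 ± 0.12, adjusted p = 7.37e-13), and Sftpa1 (-0.76 ± 0.07, adjusted p = 1.40e-09), Sftpb (-0.42 ± 0.13, adjusted p = 0.00690), Sfta2 (-0.31 ± 0.10, adjusted p = 0.0140) and Sftpd (-0.18 ± 0.05, adjusted p = 0.00505) were lower by less. Napsa did not pass (0.04 ± 0.13, adjusted p = 0.766), so the Napsa levels of these neighbours in the order were not told apart. Without the R26 CD44+ library of animal 2, and with the others scaled anew, Napsa was called higher in OG CD44- cells (0.20). The change of Sftpb was then -0.28 on the log2 scale. In the widest pair, OG CD44+ against R26 CD44-, 1 gene was higher and 6 were lower, where 74.8% of all genes passed, 41% higher and 33.8% lower. The changes there ran from -3.57 ± 0.13, adjusted p = 2.62e-16 for Sftpc to 1.61 ± 0.06, adjusted p = 4.80e-17 for Ctsh, with Sftpa1 at -2.87 ± 0.08, adjusted p = 2.85e-20.

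Per transcript length, with levels as CPM divided by the exon length in kilobases (RPKM), Sftpc came first in every group, followed by Sftpb and Sftpa1. Sftpc had 6476 ± 661 RPKM in OG CD44+, 11300.2 ± 417 in OG CD44-, 52576 ± 11849.6 in R26 CD44+ and 76974 ± 7613 in R26 CD44- cells (SD, n = 4 each). Sftpb had 3108 ± 365 RPKM in OG CD44+, 4621 ± 322 in OG CD44-, 6187 ± 1424 in R26 CD44+ and 9607 ± 999 in R26 CD44- cells. Sfta2 was lowest in every group. Ctsh ranked 4 of the 7 in OG CD44+ cells, at 540.3 ± 42.2 RPKM above Napsa at 302 ± 23.3 RPKM, and these did not overlap. In the other 3 groups Napsa was above Ctsh, with Napsa at 721 ± 69.2 RPKM and Ctsh at 177 ± 12.9 RPKM in R26 CD44- cells.

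Together the 7 genes took 2.04 ± 0.15% of all counts in OG CD44+, 3.42 ± 0.15% in OG CD44-, 8.10 ± 1.32% in R26 CD44+ and 11.3 ± 0.65% in R26 CD44- libraries (SD, n = 4 each). Counting error was small beside this spread: the widest exact Clopper-Pearson 95% interval of a library's share spanned 0.0393 percentage points. Within the 7 genes, Sftpc made up 34.5 ± 0.46% of counts in OG CD44+, 35.6 ± 0.29% in OG CD44-, 65.5 ± 1.37% in R26 CD44+ and 65.0 ± 1.41% in R26 CD44- libraries. Ctsh made up 12.5 ± 0.58% in OG CD44+, 5.54 ± 0.17% in OG CD44-, 0.749 ± 0.116% in R26 CD44+ and 0.653 ± 0.0484% in R26 CD44- libraries. The Sftpc part thus lay lower in all OG than in all R26 libraries and was close between the sorts of a prefix, whereas the Ctsh part was larger in OG CD44+ than in OG CD44- libraries.

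**Figure D3:**
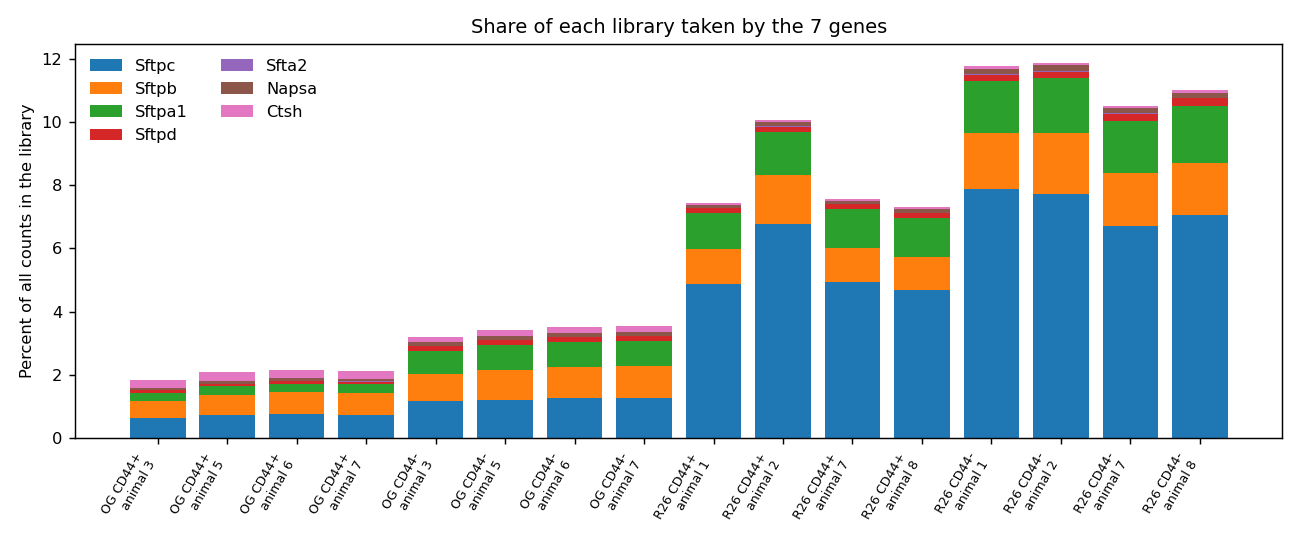
Percent of all counts in each library (vertical axis) taken by the 7 genes, stacked by gene, 1 bar per library, in the order OG CD44+, OG CD44-, R26 CD44+ and R26 CD44-. The bars stand at 1.82 to 3.54% in OG libraries and at 7.31 to 11.9% in R26 libraries, and the R26 CD44+ bar of animal 2 reaches 10.1%.

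Because each gene is a large or small part of the same library, the log2 ratio of each gene's CPM to that of Sftpc was also compared; it does not depend on scaling between libraries. Sftpc had the largest prefix fall of the 7, so the ratio of every other gene to it had to be higher in OG than in R26 cells. The 12 ratios between prefixes are therefore given as a description, with no test. The ratio of Ctsh to Sftpc was -2.68 ± 0.04 in OG CD44- and -6.64 ± 0.13 in R26 CD44- and differed by 3.96. In CD44+ cells it was -1.46 ± 0.07 in OG CD44+ and -6.46 ± 0.27 in R26 CD44+ and differed by 5.004. The ratio of Sftpb to Sftpc was -0.36 ± 0.05 in OG CD44- and -2.07 ± 0.08 in R26 CD44-, so Sftpb came nearer to Sftpc in OG cells.

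Within a prefix, an exact two-sided permutation test over 4 against 4 libraries was run for 12 ratio comparisons. It treated the libraries as independent, although each animal gave a library of both sorts, so its p-values leave out the pairing. The smallest p it can give, 0.0286, became 0.0490 after Benjamini-Hochberg adjustment over the 12, and 7 of the 12 reached it. Within OG cells, the ratio of Sftpa1 to Sftpc was -1.39 ± 0.08 in OG CD44+ and -0.64 ± 0.03 in OG CD44-, and that of Sfta2 to Sftpc was -7.94 ± 0.10 in OG CD44+ and -7.48 ± 0.08 in OG CD44-; both were lower in CD44+ cells. The ratios of Sftpb, Napsa and Ctsh to Sftpc were higher in OG CD44+ than in OG CD44- cells, by 0.23, 0.21 and 1.22. Sftpc itself changed by -0.80 there, and 3.36% of all genes tested had a lower log2 fold change. A higher ratio to Sftpc by itself therefore says little about these 3 genes. Sftpd did not differ from Sftpc in this ratio beyond its spread (-0.07, adjusted p = 0.267, exact permutation test). Within R26 cells, Sfta2 (-0.17) and Napsa (-0.16) were lower relative to Sftpc in CD44+ cells. The ratios of Sftpa1, Sftpb, Sftpd and Ctsh did not pass there (0.02, -0.09, 0.07 and 0.18). Without the R26 CD44+ library of animal 2 they differed by 0.09, -0.09, 0.19 and 0.30, and the Ctsh ratio no longer overlapped, at -6.42 to -6.21 in R26 CD44+ against -6.80 to -6.48 in R26 CD44- libraries. Sfta2 and Napsa then differed by -0.14 and -0.17. With 3 against 4 libraries the test cannot pass, so these are values with no test.

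The test of whether the CD44 difference itself differed between prefixes (the interaction, OG minus R26) passed for 4 of the 7 genes, 1 higher (Ctsh) and 3 lower (Sftpa1, Sfta2 and Sftpd). In that test 24.7% of all genes passed, 6.57% higher and 18.1% lower. Sftpa1 fell more in CD44+ cells of OG animals: the CD44+ minus CD44- difference was -1.61 to -1.52 on the log2 scale in single OG animals, against -0.67 to -0.38 in R26 animals (interaction -1.01 ± 0.10, adjusted p = 8.36e-08). Ctsh was 0.31 to 0.47 in OG animals against -0.42 to -0.34 in R26 animals (interaction 0.81 ± 0.09, adjusted p = 2.89e-07), higher in CD44+ cells of all 4 OG animals and lower in those of all 4 R26 animals. Those animal ranges did not overlap for either gene.

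Sftpd was -0.96 to -0.82 in OG animals against -0.56 to -0.38 in R26 animals (interaction -0.38 ± 0.08, adjusted p = 8.62e-04), and Sfta2 was -1.42 to -1.02 against -0.86 to -0.47 (interaction -0.53 ± 0.15, adjusted p = 0.0164). Neither pair of ranges overlapped. In the values that follow, leaving out a library also scaled the others anew, and the parts of these were not told apart. TMM scaling to an OG library, with no library left out, moved the median interaction of all genes by 0.12. Over the alternatives that left out no library, the Sftpd interaction was -0.39 to -0.26. The interaction of Sftpd was -0.22 without the R26 CD44+ library of animal 2, -0.21 without both libraries of that animal, and -0.25 to -0.24 without the R26 CD44- library of animal 7, 2 or 1 or the R26 CD44+ library of animal 8, and stayed called. That of Sfta2 was -0.27 and -0.30 without the R26 CD44+ library and both libraries of animal 2, still called. It lost its call without the R26 CD44- library of animal 8, 7, 2 or 1 (-0.38, -0.40, -0.44 and -0.41), without the R26 CD44+ library of animal 7 (-0.44), without both libraries of R26 animal 8, 7 or 1 (-0.44, -0.43 and -0.46) or of OG animal 6 (-0.48), and with TMM scaling to an OG library (-0.41, adjusted p = 0.0523).

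The other 3 genes did not pass the interaction test. Sftpc was -0.96 to -0.74 in OG animals against -0.83 to -0.25 in R26 animals (interaction -0.25 ± 0.16, adjusted p = 0.278). With the animal as a block, the Sftpc interaction was -0.24 and was called (adjusted p = 0.0498), while without the R26 CD44+ library of animal 2 it was 0.04 and not called. Sftpb (0.06 ± 0.18, adjusted p = 0.840) and Napsa (0.11 ± 0.18, adjusted p = 0.715) were not called, but without that library their interactions were 0.36 and 0.42 and were called (adjusted p = 0.0189 and 2.89e-04). That refit also scaled the other libraries anew, and the part of this in the 3 interactions was not tested. With no library left out, other settings gave -0.27 to -0.14 for Sftpc, 0.05 to 0.18 for Sftpb and 0.09 to 0.23 for Napsa.

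**Figure D4:**
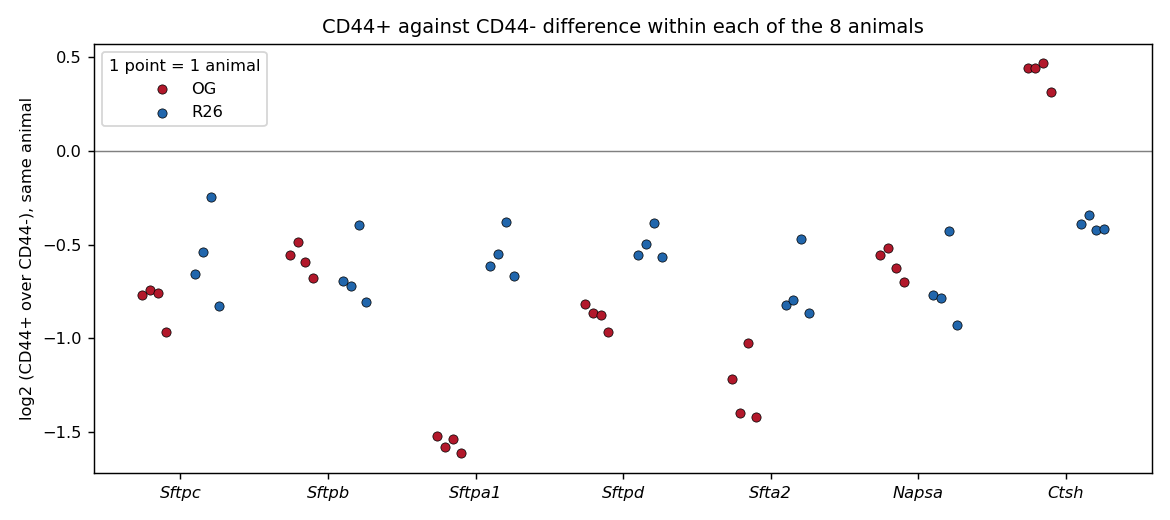
Log2 difference between the CD44+ and CD44- library of the same animal (vertical axis) for each gene, 1 point per animal, OG animals left of R26 animals. All points are below 0 except the 4 OG animals for Ctsh, which lie at 0.31 to 0.47, and the Sftpa1 points of OG animals lie at -1.61 to -1.52.

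Genes that work with surfactant were described from lists, whose counts are to be read beside the shares of all genes that passed in the same direction. Of 6 genes of the lamellar body and the surfactant pool, 6 were lower in OG CD44- than in R26 CD44- cells (29.6% of all genes) and 6 in OG CD44+ than in R26 CD44+ cells (34.6% of all genes). In CD44+ against CD44- cells 5 of the 6 were lower with either prefix, beside 28% of all genes in OG and 15.4% in R26. Their median log2 fold change was -0.64 beside -0.06 for all genes in OG and -0.48 beside -0.02 in R26. Lamp3, a lamellar body membrane protein, had 825 ± 44.2 CPM in OG CD44+ and 2163 ± 66.5 CPM in OG CD44- cells (change -1.39 ± 0.06), against 3382 ± 267 CPM in R26 CD44+ and 4679 ± 165 CPM in R26 CD44- cells (-0.47 ± 0.06). Abca3, the lipid transporter of the lamellar body, changed by -0.70 ± 0.08 in OG and -0.50 ± 0.08 in R26 CD44+ cells, and by -0.90 ± 0.08 in OG CD44- against R26 CD44- cells. Slc34a2, a phosphate transporter of AT2 cells, changed by -0.98 ± 0.08, -0.57 ± 0.08 and -1.31 ± 0.08 in the same comparisons. Lamp3, Abca3 and Slc34a2 are also among the AT2 markers above.

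Of 8 transcription factors known to act on surfactant genes, 6 were lower and 0 higher in OG CD44- against R26 CD44- cells by edgeR's test, and 6 were lower and 1 higher in OG CD44+ against R26 CD44+ cells. Of all genes, 29.6% were lower and 39.4% higher in the first comparison, and 34.6% lower and 34.5% higher in the second. In CD44+ against CD44- cells, 4 were lower and 1 higher with OG, beside 28% and 22.3% of all genes, and 5 were lower and 1 higher with R26, beside 15.4% and 21.6%. The median log2 fold change of the list between the OG sorts was -0.15, beside -0.06 for all genes. Etv5, an ETS factor that maintains AT2 cells, had 252 ± 16.5 CPM in OG CD44+ and 532 ± 6.74 CPM in OG CD44- cells, against 653 ± 93.5 CPM in R26 CD44+ and 1051 ± 69.8 CPM in R26 CD44- cells. It changed by -1.08 ± 0.07 between the OG sorts. Cebpa changed by -0.50 ± 0.07 between the OG sorts and -0.89 ± 0.07 between prefixes in CD44- cells. Nkx2-1 changed by less, -0.33 ± 0.05 and -0.48 ± 0.05 in those comparisons.

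Most of the other proteases of the endolysosome and their inhibitors were higher in OG than in R26 cells, as Ctsh was and Napsa was not. Of 12 genes, 10 were higher and 1 lower in OG CD44- against R26 CD44- cells, beside 39.4% and 29.6% of all genes, with a median log2 fold change of 0.87 beside 0.12 for all genes. In OG CD44+ against R26 CD44+ cells 11 were higher and 1 lower, beside 34.5% and 34.6% of all genes, with a median of 0.88 beside -0.01. Between the OG sorts, 7 were higher and 4 lower (22.3% and 28% of all genes), and between the R26 sorts, 2 were higher and 2 lower (21.6% and 15.4%). Ctsl, a cysteine protease, had 128 ± 4.48 CPM in OG CD44+ and 70.3 ± 3.16 CPM in OG CD44- cells (0.87 ± 0.06), against 66.2 ± 6.70 CPM in R26 CD44+ and 62.5 ± 1.95 CPM in R26 CD44- cells (0.08 ± 0.06, adjusted p = 0.293, not called). Ctse, an aspartic protease like napsin A, had 49.1 ± 8.998 CPM in OG CD44+ and 7.58 ± 0.863 CPM in OG CD44- cells (2.69 ± 0.16), against 13 counts in all R26 CD44+ and 3 counts in all R26 CD44- libraries, too few for a fold. Ctss, a cysteine protease abundant in macrophages, had 10.8 ± 3.11 CPM in OG CD44+, 6.88 ± 0.459 CPM in OG CD44- and 3.72 ± 2.25 CPM in R26 CD44+ cells, against 10 counts in all R26 CD44- libraries. The macrophage markers, summed above, were highest in OG CD44- libraries, and their part in the Ctss values was not tested.

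**Figure D5:**
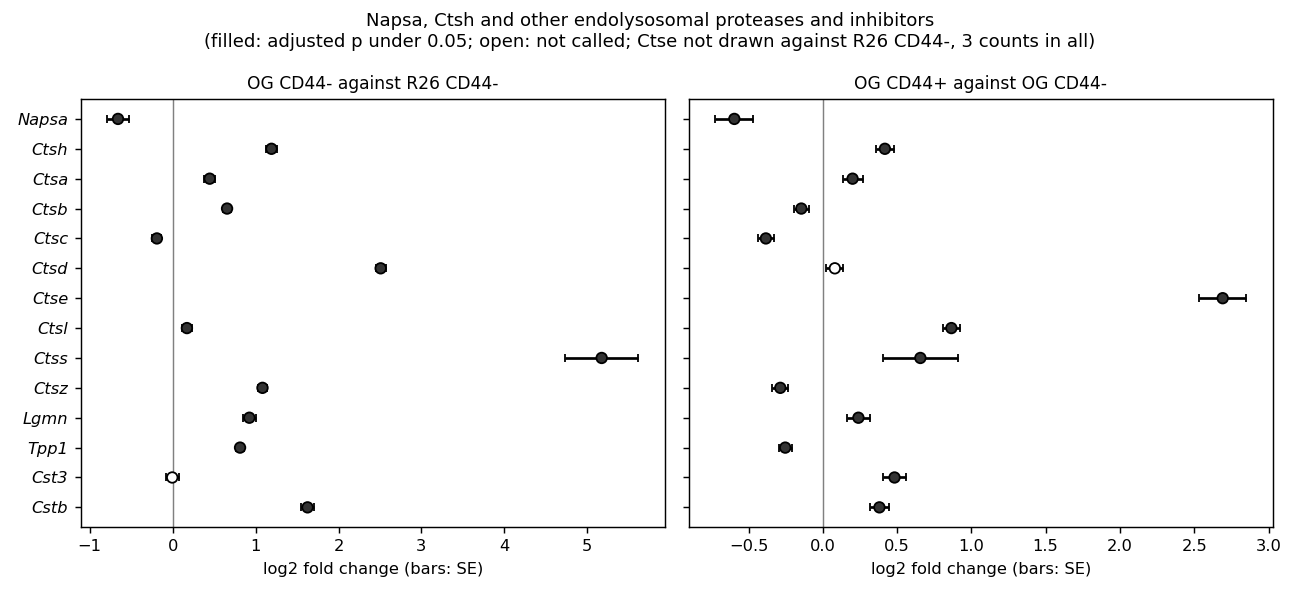
Log2 fold change with SE of Napsa, Ctsh, 10 further proteases and 2 cystatins in OG CD44- against R26 CD44- (left) and OG CD44+ against OG CD44- cells (right); the horizontal scales differ. Ctse is not drawn in the left panel, since its R26 CD44- counts were too few for a fold. Filled points passed the test. Ctsh (1.19) lies right of 0 with most of the list in the left panel, and Napsa (-0.66) lies left of it, as it does in the right panel (-0.60).

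The 3 lists that follow held calls in both directions between prefixes. Over all genes the shares were 39.4% higher and 29.6% lower in OG CD44- against R26 CD44-, 34.5% and 34.6% in OG CD44+ against R26 CD44+, 22.3% and 28% between the OG sorts, and 21.6% and 15.4% between the R26 sorts. Single genes are named from them for their own values, and nothing is read from the lists. Of the 4 genes that sort the surfactant protein C precursor, 2 were higher and 2 lower in OG CD44- against R26 CD44- cells, 2 higher and 1 lower in OG CD44+ against R26 CD44+ cells, 1 higher and 2 lower between the OG sorts, and 0 higher and 2 lower between the R26 sorts. Hgs, a subunit of the complex that sorts ubiquitinated cargo, was higher in OG CD44- than in R26 CD44- cells (1.11 ± 0.05), as was Tsg101 of the next sorting complex (0.72 ± 0.08). The ubiquitin ligase genes Nedd4l (-0.45 ± 0.06) and Nedd4 (-0.13 ± 0.04) were lower.

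Of 10 genes that share a protein domain with the surfactant proteins, 6 could be tested, and 3 were higher and 3 lower in OG CD44- against R26 CD44- cells, 3 higher and 1 lower in OG CD44+ against R26 CD44+ cells, 3 higher and 1 lower between the OG sorts, and 2 higher and 2 lower between the R26 sorts. Psap, prosaposin, which shares the saposin domain of surfactant protein B, was higher by 1.32 ± 0.07 between prefixes in CD44- cells. It was higher by 0.71 ± 0.06 in OG CD44+ than in OG CD44- cells, opposite in direction to Sftpb. Itm2a, which shares the BRICHOS domain of the surfactant protein C precursor, was higher by 3.67 ± 0.21 between prefixes in CD44- cells. The collectin gene Mbl1 was lower there (-1.90 ± 0.15), at 3.24 ± 0.180 CPM in OG CD44- against 11.995 ± 2.41 CPM in R26 CD44- cells, and Colec12, a scavenger receptor collectin, was higher in CD44+ than in CD44- cells (1.77 ± 0.32 in OG and 2.97 ± 0.38 in R26).

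Of 6 genes for receptors or binding partners of surfactant proteins A and D, 3 were higher and 3 lower in OG CD44- against R26 CD44- cells, 2 higher and 3 lower in OG CD44+ against R26 CD44+ cells, 3 higher and 2 lower between the OG sorts, and 2 higher and 1 lower between the R26 sorts. Lrp1, an endocytic receptor also abundant in fibroblasts, had 396 ± 141 CPM in OG CD44+ and 145 ± 5.55 CPM in OG CD44- cells (1.45 ± 0.29), and 329.9 ± 153 CPM in R26 CD44+ and 47.5 ± 6.73 CPM in R26 CD44- cells (2.80 ± 0.31). It was higher in the same sorts as the fibroblast markers, and their part in it was not tested. Sirpa, an inhibitory receptor of myeloid cells, was higher in CD44+ cells (0.95 ± 0.21 in OG and 0.95 ± 0.20 in R26), and Tlr4 was lower (-0.20 ± 0.08 and -0.36 ± 0.08).

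Across the 16 libraries, 7214 abundant genes were ranked by the Pearson correlation of their log2 CPM with that of each of the 7 genes. The libraries form 4 groups and share their scaling, so these values mostly describe the group levels, and no p is given. The genes most like Sftpc were Atp2a3 (r = 0.9974), Bambi (0.9962) and Slc16a1 (0.9961). Those most like Sftpa1 were Ubr1 (0.9983), Lamp3 (0.9980) and Dpp9 (0.9974), and those most like Sftpb were Zdhhc3 (0.9883), Cmtm8 (0.9865) and Cebpa (0.9863). Etv5 was first for Sftpd (0.9927) and second for Sfta2 (0.9945), behind Cyb5b (0.9954). Lpcat1, an enzyme that makes surfactant phospholipid, was first for Napsa (0.9892). For Ctsh they were Tinagl1 (0.9936), Cdcp1 (0.9928) and Psmd8 (0.9905): Tinagl1 had 388 CPM in OG CD44+, 339 CPM in OG CD44-, 102 CPM in R26 CD44+ and 135 CPM in R26 CD44- cells, the order that Ctsh showed.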

How the data were processed

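The authors deposited raw counts per gene for 16 libraries, whole numbers with no normalization. Per the labels' protocols, the kit was a stranded one for total RNA that removes ribosomal RNA, and per the submitters' processing notes reads were aligned with Bowtie2 to mm10. The counting program, annotation and strand setting are not given in the sources used here. Sorts and animals come from the column names, and R26 was read as control by inference.

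Symbols were matched for 25275 of 27179 identifiers (93%). Tests used R 4.3.3 and edgeR 4.0.16: filterByExpr, TMM, and its robust quasi-likelihood test (glmQLFTest) with group means fitted to the 16 libraries jointly. A call is a Benjamini-Hochberg adjusted p under 0.05 over 15516 genes. The value after ± of a log2 fold change is its SE, and after ± of a level the SD (n = 4). Ratios were tested by exact permutation (scipy 1.17.1). RPKM used GENCODE exon lengths, with each base of a gene's exons counted once over all its transcripts. The scripts were tested on simulated data.

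The members, lists and rules were chosen with earlier results of these data known. Named genes are the 7 members and, per list, up to 3 genes with the largest absolute log2 fold change in OG CD44+ against OG CD44- and up to 2 in OG CD44- against R26 CD44-. Up to 3 genes most correlated with each member, among genes of mean log2 CPM of at least 4, are also named.

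Libraries of the same animal are paired by column name. The deviations of the pair from their group means correlated at 0.126 to 0.240 in R26 and 0.0199 to 0.0967 in OG animals. Alternatives were other scalings, low count filters (none, or at least 50 counts in 4 libraries), DESeq2 1.42.0, limma voom (limma 3.58.1), a 1.5-fold minimum, only the libraries compared, an animal block and leaving out libraries. Fits with libraries left out were filtered and scaled anew. Intervals cover counting error only.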

Additional observations from a re-analysis of the deposited data

Results flagged for a closer look

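In 28 combinations of gene and group, the sample farthest from the other 3 was looked at with Dixon's test at its 95% critical value. Chance marks about 1 in 20 groups, and 6 were marked here. The R26 CD44+ library of animal 2 was above the other 3 R26 CD44+ libraries for Sftpc (72715 CPM), Sftpb (16375 CPM), Napsa (1613 CPM) and Sfta2 (103.7 CPM), so 4 of the 6 come from 1 library. It had the lowest total of all libraries, 9022471 counts. Its 5 AT2 markers other than Sftpc summed to 48568 CPM, above the 34797 to 36758 CPM of the other R26 CD44+ libraries. Its lymphocyte and plasma cell markers summed to 3797 CPM, against 1567 to 2195 CPM in those libraries. Its fibroblast markers summed to 677 CPM, against 834 to 1458 CPM. The part of any of these in the flagged values was not tested. The OG CD44+ library of animal 3 was below the others of its group for Napsa (711.9 CPM). It was the lowest of its group for all 7 genes, its second principal component was -29.5 against -9.26 to -8.60 in the other OG CD44+ libraries, and its fibroblast markers summed to 2803 CPM against 1570 to 1666 CPM. Their part in its values was not tested. The R26 CD44- library of animal 8 was above the others of its group for Sftpd (2505 CPM).

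The CD44 difference differed between prefixes by the interaction test for 4 genes. Ctsh differed by 0.81, being higher in CD44+ cells of 4 of 4 OG animals and lower in those of 4 of 4 R26 animals. Sftpa1 differed by -1.01, Sfta2 by -0.53 and Sftpd by -0.38, with a larger fall in CD44+ cells of OG animals.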

How the results depend on the processing

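The 49 log2 fold changes of the 7 genes were each recomputed under 34 or 35 alternative settings. This gave 1680 values, of which 1633 kept direction and call. Of the 1680, 1176 came from leaving out libraries, also libraries outside the comparison. The rest comprised 29 that lost a call, 7 that gained one and 11 that changed sign. In the 4 comparisons within a prefix or a sort, no gene changed sign under any alternative run, and no gene lost its call except under the 1.5-fold minimum.

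Under the 1.5-fold minimum, the 7 genes gave 3 calls in OG CD44+ against OG CD44-, 0 in R26 CD44+ against R26 CD44-, 3 in OG CD44- against R26 CD44+ and 2 in the interaction. All genes then gave 1845, 2035, 4989 and 668 calls in these comparisons, against 7815, 5750, 11141 and 3825 with no minimum. They gave 4646 in OG CD44- against R26 CD44-, 4779 in OG CD44+ against R26 CD44+ and 6200 in OG CD44+ against R26 CD44-, against 10705, 10726 and 11606. Of the 2035 calls in R26 CD44+ against R26 CD44- at the minimum, 2026 were higher and 9 lower. Of the 1845 in OG CD44+ against OG CD44-, 1483 were higher and 362 lower.

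Napsa in OG CD44- against R26 CD44+ (0.04, not called) turned to -0.10 with upper quartile scaling, -0.0015 with scaling that left out the 7 genes, -0.0468 with at least 50 counts in 4 libraries, and -0.0625 to 0.20 when single libraries or animals were left out. The cause was not tested. The Sftpc interaction (-0.25) turned to 0.0411 without the R26 CD44+ library of animal 2 and 0.0036 without both of its libraries, and was as low as -0.29 without others. Leaving out libraries also scaled the remaining ones anew, and the part of this in these values was not tested. Sfta2 in OG CD44- against R26 CD44+ lost its call with no low count filter (-0.25). The replicate block of animal moved the Sftpc interaction to -0.24 and over the threshold, and changed no other call of the 7 genes.

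Upper quartile scaling moved the median of all genes by -0.12 in OG CD44- against R26 CD44- and by -0.14 in OG CD44- against R26 CD44+, and TMM against an OG library moved it by -0.11 in OG CD44- against R26 CD44- and by 0.12 in the interaction. The share of calls that were higher was 57.2% with upper quartile scaling, against 44.3%, in OG CD44+ against OG CD44-. With TMM against an OG library it was 43.4%, against 58.4%, in R26 CD44+ against R26 CD44-, and 51.3%, against 26.6%, in the interaction. Without 1 identifier that has no symbol and held 4.98 to 11.8% of counts per library, the 7 genes took 2.29% of counts in OG CD44+ and 3.68% in OG CD44- libraries. Adjusted over all 24 ratio comparisons, as first planned, the smallest p became 0.0361 and the same 7 ratios within a prefix passed; the adjustment over 12 was chosen after seeing the data. The ratio tests could not be repeated with a library left out, since 3 against 4 allows no p below 0.0571.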
